A study of Drosophila melanogaster with 3 samples.

Results

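The 10 genes described here are core components of insulin and TOR signalling in Drosophila melanogaster: InR, chico, Akt, foxo, Tsc1, gig, Rheb, Tor, S6k and Thor. They are 10 of 13968 protein-coding genes in the Ensembl annotation on dm6 coordinates, and all were found there, Tor under the symbol mTor. They were listed by name, with earlier results of these data known. The measurement was chromatin immunoprecipitation and sequencing of rgr (regular), a fly protein assayed as a transcription factor. The material was whole larvae of the rgr-GFP strain at the wandering stage of the third instar, of unknown age, with males and females pooled. The line is transgenic and stably expresses rgr with GFP fused to its carboxyl terminus, and the antibody recognised GFP. There was 1 group of 3 biological replicates, each labelled as its own sample, with no other genotype, treatment or time, so there is no comparison between conditions. Libraries from flies without the tag were not analysed here. Because the chromatin came from whole animals, a peak cannot be assigned to a tissue, and fewer cells with binding cannot be told apart from weaker binding per cell.

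Insulin-like peptides bind the receptor InR, which signals through the adaptor chico and the lipid kinase PI3K to the kinase Akt. Akt keeps the transcription factor foxo out of the nucleus, and the complex of Tsc1 and gig (the fly TSC2) acts downstream of Akt as a brake on the small GTPase Rheb. Rheb activates the kinase Tor, whose complex TORC1 phosphorylates S6k, which promotes translation, and Thor, the fly 4E-BP, which restrains it. In larvae this pathway couples food supply to growth, and InR and Thor are known targets of foxo in Drosophila.

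Of the 10 genes, 8 had at least 1 summit of the authors' thresholded peak list (the optimal list, 8551 peaks) inside the gene or within 2 kb of it, and chico and Tsc1 had none. There were 18 such summits: 6 at InR, 4 at foxo, 2 each at Akt and S6k, and 1 each at gig, Rheb, Tor and Thor. The same rule was met by 46.0% of all protein-coding genes, whose median length is 2164 bp. All members but Rheb and Thor are longer than that. Among genes within 1.2 times a member's length, the share with no such summit was lowest for foxo (30.6%) and InR (32.7%). It was highest for Rheb (57.5%) and Thor (62.6%). A summit within 500 bp of one of the gene's own annotated transcript starts was present at 5 of the 10 (InR, foxo, Rheb, Tor and Thor), against 29.0% of protein-coding genes. Set tests on a list of 10 chosen genes were not made, so these shares are descriptions. InR and foxo, the only members longer than 20 kb, held 10 of the 18 summits, and long genes have more room for peaks. In the strongest 8551 entries of each replicate's own list, 8, 7 and 8 members had a summit within 2 kb in replicates 1, 2 and 3 (7.67 ± 0.577, SD, n = 3), against 48.2%, 46.6% and 47.0% of protein-coding genes. Within 500 bp of a start the member counts were 5, 4 and 6 (5 ± 1, SD, n = 3), against 30.9%, 29.4% and 29.5%. Replicate 2 lacked Tor, and replicate 3 also had an entry at the S6k start.

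**Figure D1:**
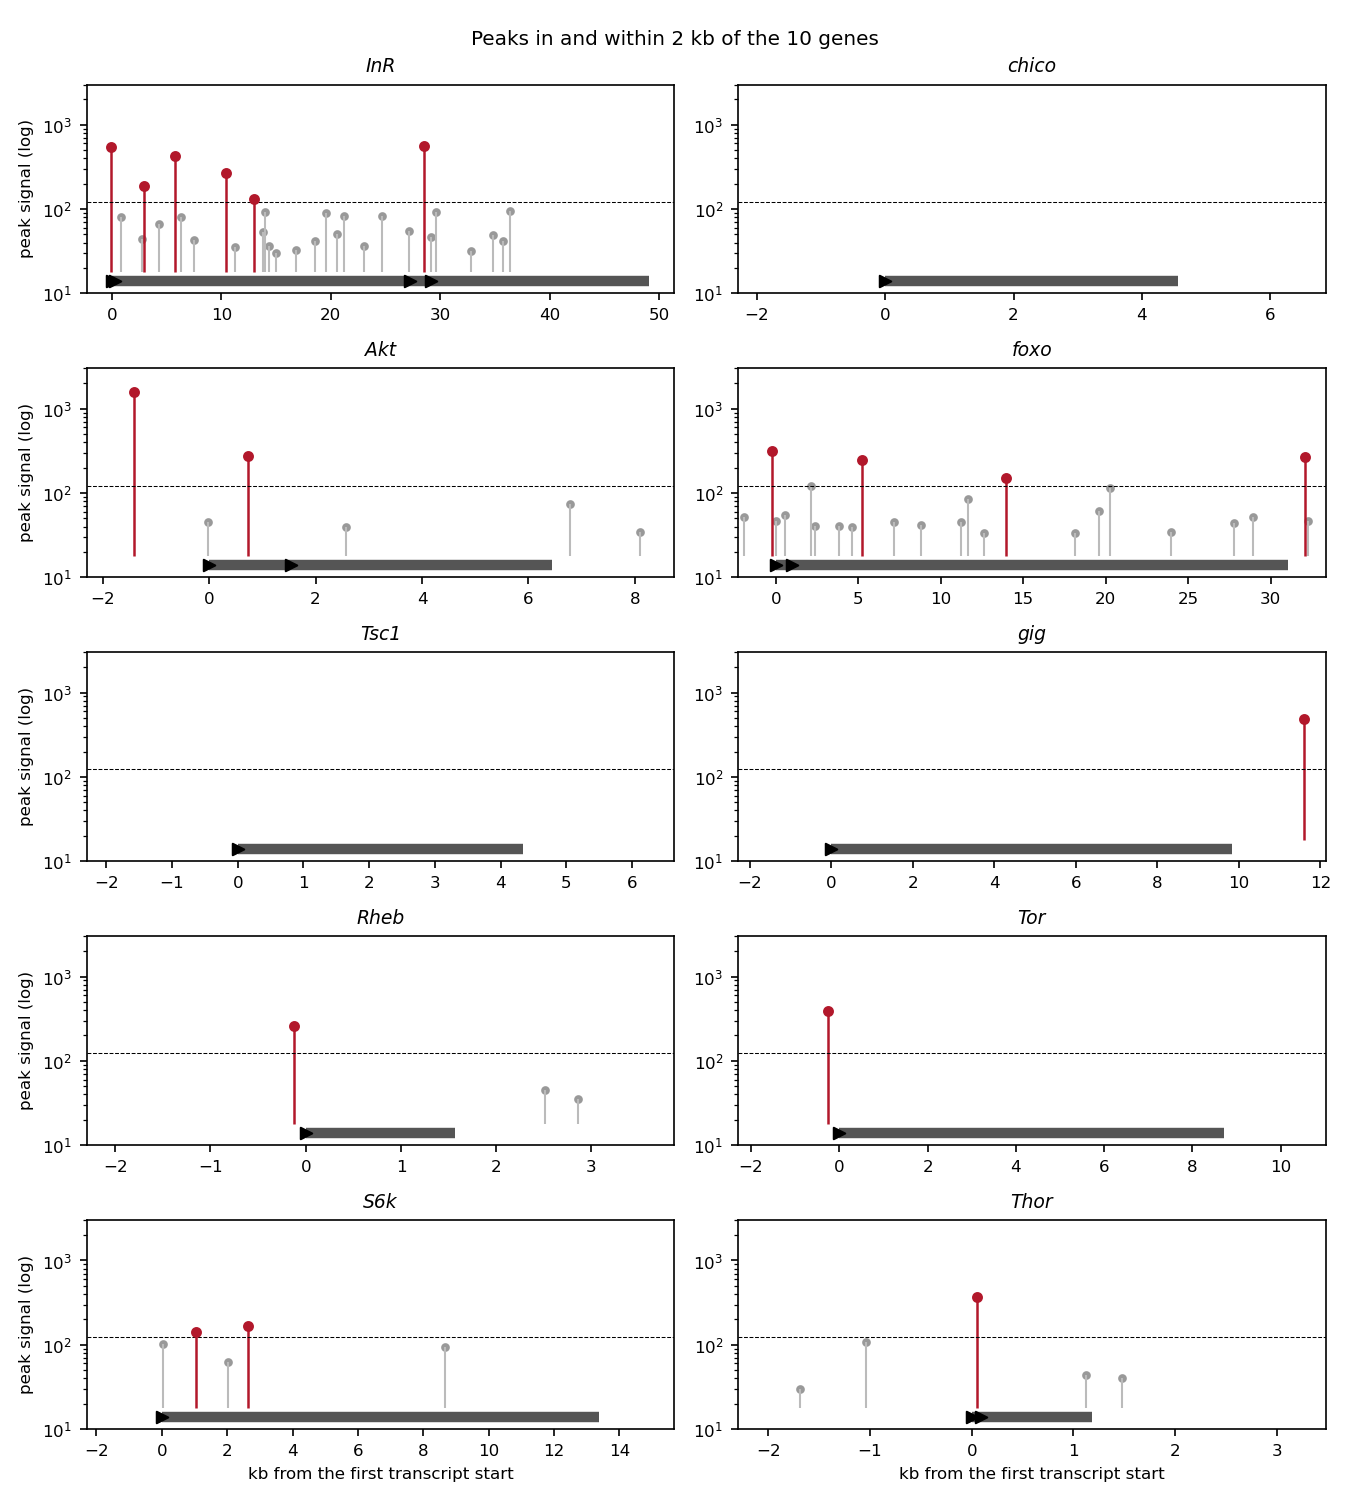
Peaks in and within 2 kb of each of the 10 genes, with the distance in kb from the first transcript start, in the direction of transcription, on the horizontal axis and the authors' peak signal on a log vertical axis. Red stems are the 18 optimal summits, grey stems the 56 weaker entries of the pooled relaxed list, the dashed line the lowest signal in the optimal list (123), the dark bar the gene and the arrowheads its transcript starts. The panels of chico and Tsc1 are empty.

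Peak signal is the authors' value in the optimal list, which was called on the 3 replicates together. It carries no stated unit, so it ranks peaks within that list. For each replicate the rank of the nearest summit within 100 bp is given, in a relaxed list of 30000 entries in which rank 1 is the strongest. The 18 summits had a median signal of 271, against 225 over the optimal list, and ranged from 131 to 1564. Of the 18, 13 (72.2%) were among the 4275 strongest peaks. In the top 8551 entries of all 3 replicates 11 of the 18 were found (61.1%), against 64.8% of all optimal summits. These lists were used to derive the optimal list, so the sharing is in part fixed by that. No list holds read counts, so the depth behind a peak is unknown.

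InR, the receptor gene, lies at 3R:21570248 to 21619321 on the minus strand and has 4 transcript starts in 2 places: InR-RB and InR-RA start at 21619321 and 21619036, and InR-RC and InR-RD inside the gene at 21592121 and 21590191. Its strongest summits lay just upstream of the first pair and between the internal pair. The summit at 21590862 (signal 563) lay in an intron, 671 bp upstream of the start of InR-RD and 1259 bp inside InR-RC, at rank 1292, 844 and 1360 in replicates 1, 2 and 3. The summit at 21619397 (signal 545) lay 76 bp upstream of the first start, at rank 1158, 1329 and 910. Replicate 2 ranked the internal summit above the upstream one and replicates 1 and 3 the reverse, so the order of the pair is not fixed by these data. The sequences within 50 bp of both summits are shown because these were the strongest summits of the receptor gene, the first at a start and the second in an intron outside 500 bp of any start. They are given on the InR strand, from RefSeq's dm6 assembly, in lower case because none of the 11 words searched for (named below) occurs in them.
InR first start, chr3R:21619347-21619447, minus strand: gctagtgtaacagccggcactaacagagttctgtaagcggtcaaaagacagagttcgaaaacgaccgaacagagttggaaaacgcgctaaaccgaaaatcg
InR intron between the internal starts, chr3R:21590812-21590912, minus strand: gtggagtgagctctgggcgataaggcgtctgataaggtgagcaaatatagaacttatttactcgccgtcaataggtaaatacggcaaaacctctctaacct

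The other 4 InR summits were in introns between the starts. The strongest, 5468 bp inside InR-RA (3R:21613568, signal 427), was at rank 1885, 1634 and 1480. That at 21608865 (signal 265) was 10171 bp inside InR-RA, at rank 2887, 3807 and 3359, and 199 bp from the annotated start of a foldback transposable element insertion. How well reads map there was not tested. The remaining pair were weaker and less even. The summit at 21616391 (signal 186), 651 bp from the start of the noncoding RNA gene lncRNA:CR44034, was at rank 9507, 6392 and 5560. The summit at 21606348 (signal 131) had an entry within 100 bp in replicate 2, at rank 8420, and in replicates 1 and 3 the nearest entries were 109 and 130 bp away. Within 500 bp of the internal starts the pooled relaxed list had entries below the optimal threshold, 66 bp upstream of InR-RC (signal 55.2, rank 17743) and 23 bp (46.8, rank 20406) and 500 bp (92.3, rank 11322) inside InR-RD. With 6 summits InR was above the median of 2 among 208 genes within 1.2 times its length, but 48 of them (23.1%) had at least as many.

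chico, the gene of the insulin receptor substrate adaptor (2L:10242512 to 10247078, minus strand), had no entry within 2 kb in the optimal list, the pooled relaxed list or any of the 3 replicate lists. The nearest optimal summit was 11156 bp from the gene and the nearest pooled relaxed entry 4539 bp. In the replicate lists the nearest entries were 3288, 4547 and 4359 bp away. The pooled relaxed list likewise had no entry within 2 kb at 35.9% of protein-coding genes. Among the 1150 genes of similar length 43.9% had no optimal summit, so chico shares this state with many genes of its size.

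The strongest summit of the set lay upstream of Akt, inside its neighbour. Akt, the kinase gene (3R:16099228 to 16105670, plus strand), had a summit of signal 1564 at 16097823, 1405 bp upstream of its first start. It was peak 115 of the optimal list and stood at rank 111, 117 and 119 in replicates 1, 2 and 3. This position is inside Mhcl, a myosin heavy chain-like gene that runs the other way, and 938 bp from a start of Mhcl, nearer than to Akt. The other Akt summit was in an intron, 729 bp inside the first start and 803 bp upstream of that of Akt-RD (signal 274). It was at rank 3047 in replicate 1 and 3312 in replicate 2, and replicate 3 had its nearest entry 116 bp away, at rank 5208. At the first start of Akt the pooled relaxed list had only a weak entry, 12 bp upstream (signal 45.8, rank 20753). The window of the strongest summit is shown for its base composition: 79.2% of its bases are A or T, the highest of the 18, and none of the searched words occurs in it. The Akt intron window beside it is 43.6% A or T.
Summit upstream of Akt, inside Mhcl, chr3R:16097773-16097873, plus strand: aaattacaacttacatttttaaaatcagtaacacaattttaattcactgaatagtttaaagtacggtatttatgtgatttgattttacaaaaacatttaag
Akt intron summit, chr3R:16099907-16100007, plus strand: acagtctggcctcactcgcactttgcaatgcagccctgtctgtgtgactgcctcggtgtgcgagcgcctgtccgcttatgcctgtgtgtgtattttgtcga

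foxo, the forkhead transcription factor gene (3R:14056945 to 14087978, plus strand), had 4 summits. The strongest (signal 314) was at 14056729, 216 bp upstream of the start shared by 4 of its 5 transcripts and 1190 bp upstream of that of foxo-RG, at rank 2760, 3564 and 1943. A summit in the long intron, 5246 bp from the first start (14062191, signal 246), was at rank 3982, 3737 and 3411, the closest agreement between replicates among the foxo summits. A weaker one 13955 bp from that start (14070900, signal 150) was at rank 9120, 6109 and 8034, outside the top 8551 in replicate 1. The last (14089003, signal 269) lay 1025 bp past the end of foxo and 514 bp upstream of the start of Npc2b, whose product is a sterol-binding protein of the Niemann-Pick type C-2 family. Outside the 2 kb limit, 3344 bp upstream of foxo, was a stronger summit than any inside it (14053601, signal 1030, rank 323 of the optimal list). No gene other than foxo has a nearer start to it. Among 281 genes of similar length the median count was 2, and 28.1% had at least 4. The upstream window is shown because it lies at the foxo start, and the intron window because it holds the homeodomain word TAATTA, in capitals.
foxo upstream summit, chr3R:14056679-14056779, plus strand: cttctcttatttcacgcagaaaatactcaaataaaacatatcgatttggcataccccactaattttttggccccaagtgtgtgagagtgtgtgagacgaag
foxo intron summit, chr3R:14062141-14062241, plus strand: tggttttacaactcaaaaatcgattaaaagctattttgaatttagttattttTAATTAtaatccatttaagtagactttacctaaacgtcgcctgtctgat

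The 2 genes of the TSC complex had no summit of their own. Tsc1 (3R:24130307 to 24134654, plus strand) had no entry within 2 kb in any of the 5 lists, and the nearest entries of replicates 1, 2 and 3 were 4086, 5386 and 3580 bp from the gene. Among 1170 genes of similar length 45.3% had no optimal summit. gig (3L:20129181 to 20139010, plus strand) met the rule through 1 summit, at 20140775, which lay 1765 bp past its end and 168 bp from the start of the neighbouring gene CG7328. That peak (signal 492) was at rank 1193, 1385 and 2215. Neither the gig gene body nor its start, 11594 bp away, had an entry in the pooled relaxed list.

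Rheb and Tor each had 1 summit, between divergent starts. At Rheb, the GTPase gene (3R:5568921 to 5570491, plus strand), the summit at 5568803 (signal 260) was 118 bp upstream of its start and 188 bp upstream of that of CG2931 on the other strand. It was at rank 4779, 3227 and 5856, within the top 8551 of each replicate. At Tor, the kinase gene (2L:13004480 to 13013197, plus strand), the summit at 13004217 (signal 390) was 263 bp upstream of the Tor start and 110 bp upstream of that of Vha68-1, which encodes a subunit of the vacuolar proton pump. Replicates 1 and 3 had it at rank 1930 and 2888. Replicate 2 had no entry for it: its nearest was 14994 bp away. Such a gap was rare, since 18 of 8551 optimal summits (0.211%) had no entry of replicate 2 within 1 kb, 4 of them among the 2000 strongest. With replicate 1 or 3 left out, a summit had to be in the top 8551 of both others. Because replicate 2 lacked it, Tor then had none left. Both windows are shown because a summit there cannot be assigned to either gene of its pair. Capitals again mark TAATTA, which the Tor window holds.
Rheb and CG2931, chr3R:5568753-5568853, plus strand: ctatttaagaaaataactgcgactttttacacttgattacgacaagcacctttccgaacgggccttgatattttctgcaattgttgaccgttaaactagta
Tor and Vha68-1, chr2L:13004167-13004267, plus strand: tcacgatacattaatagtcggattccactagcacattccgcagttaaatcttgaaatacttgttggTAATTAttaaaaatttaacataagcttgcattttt

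The 2 translational outputs of TORC1 differed in where their summits lay. S6k, the ribosomal protein S6 kinase gene (3L:5797549 to 5810931, minus strand), had its summits in an intron, 1037 bp (5809894, signal 143) and 2650 bp (5808281, signal 167) inside its start. The first was at rank 9736, 5087 and 11762 and the second at rank 3748, 9139 and 12825, so the first was in the top 8551 of replicate 2 alone and the second in that of replicate 1 alone. S6k therefore kept no summit with any 1 replicate left out, where a summit had to be in the top 8551 of both others. At the S6k start itself, 33 bp inside, stood an entry below the optimal threshold (signal 103.5, rank 10151), at rank 11493, 13908 and 8175. This entry was also 75 bp from a start of the gene kri, so it cannot be assigned to S6k alone. Thor (2L:3478434 to 3479612, plus strand) had 1 summit, at 3478488 (signal 371), in the 5′ UTR of Thor-RA, 54 bp inside the start of that transcript and 34 bp upstream of the start of Thor-RB. It was at rank 2441, 1902 and 3319. It was also the only summit of the 18 with both forkhead words, TGTTTGT 23 bp and TGTTTAC 41 bp from the summit, each on the minus strand. The site, of 27 bases, is shown with the words in capitals as they read on the plus strand.
Thor forkhead words, chr2L:3478510-3478536, plus strand: tACAAACAacgcagtttgtGTAAACAa

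**Figure D2:**
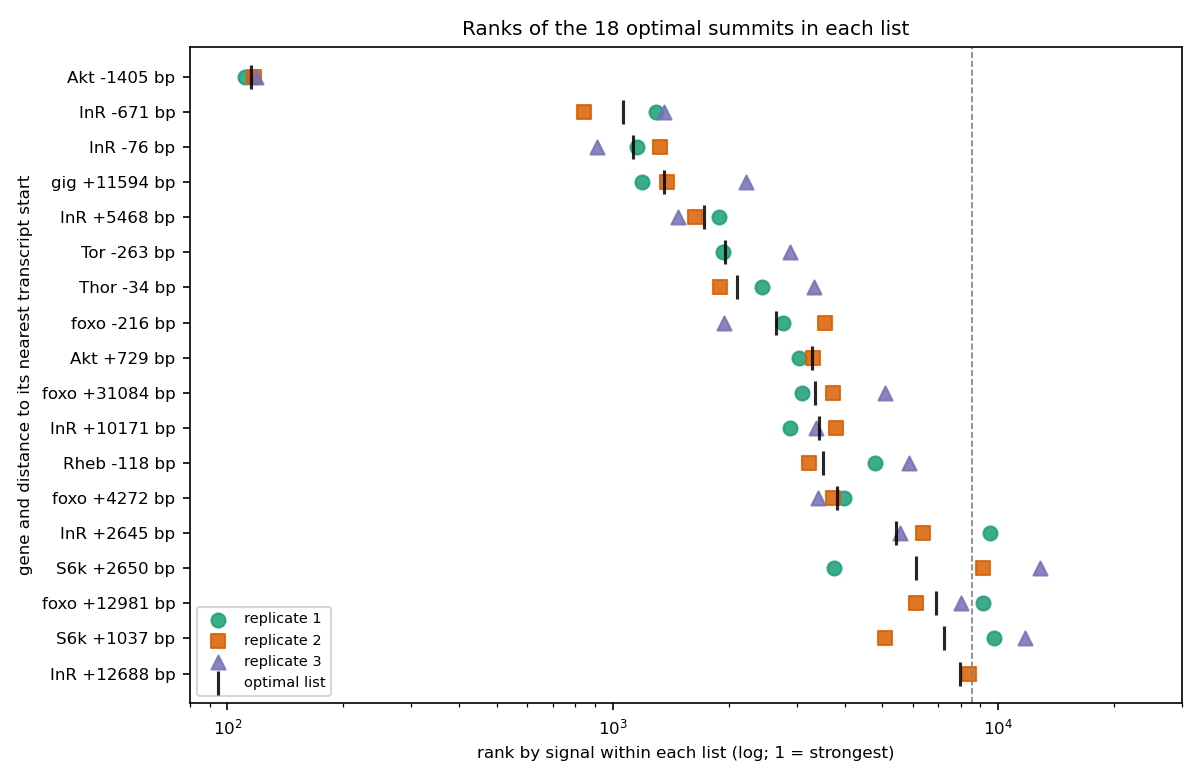
Rank by signal, on a log axis on which 1 is the strongest, of each of the 18 optimal summits in the optimal list (bar) and in replicates 1, 2 and 3 (circle, square and triangle), with summits named by gene and signed distance to that gene's nearest start. A symbol is missing where a replicate has no summit within 100 bp, and the dashed line is rank 8551. The summit 1405 bp upstream of Akt is at 111 to 119 in every list, and the S6k summits are the widest spread.

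Position split the set further. Of the 18 summits, 10 were in introns and 1 in a 5′ UTR of the member gene, 5 were upstream of it and 2 past its end. None lay in a coding exon of the member gene. The shares of these classes over all optimal summits were not computed, so the counts only describe the set. InR and foxo, the only members longer than 20 kb, held 10 of the 18 summits. Within 500 bp of the member's own start were 5 (27.8%), and within 500 bp of a start of any gene 6 (33.3%), against 45.6% of all optimal summits. Starts of transposable elements are left out of these shares but are included in the next count. For 8 of the 18 another annotated start was nearer than the member's own: those of the foldback element and lncRNA:CR44034 inside InR, each nearest to 2 summits, and those of Mhcl, Npc2b, CG7328 and Vha68-1. How often this holds at other genes under the same 2 kb rule was not computed.

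**Figure D3:**
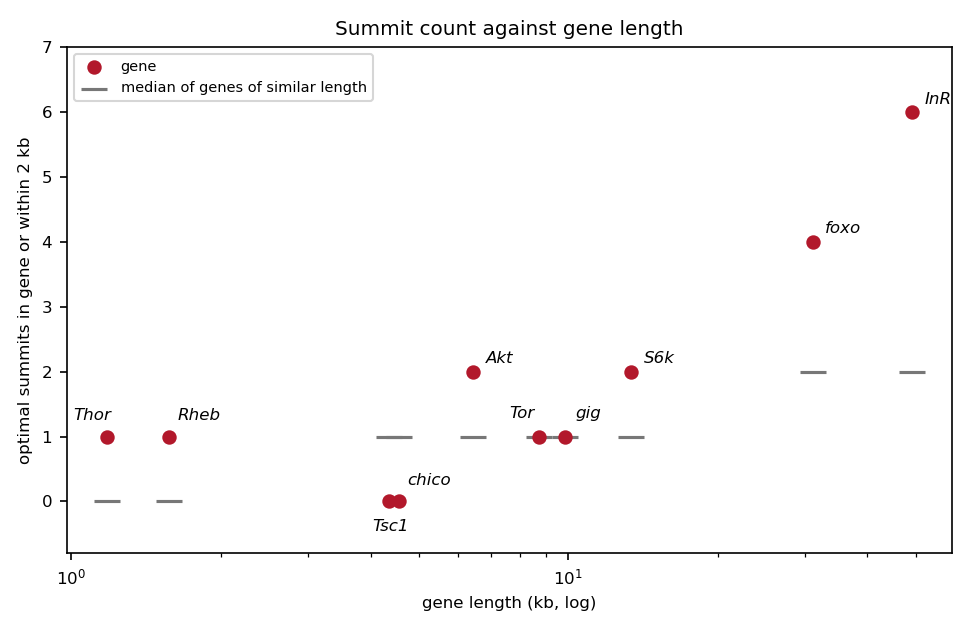
Number of optimal summits in each gene or within 2 kb (red points) against gene length in kb on a log axis, with the median over protein-coding genes within 1.2 times the same length (grey bars). InR (6) and foxo (4) are above the median of 2, and chico and Tsc1 (0) are below the median of 1.

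Below the optimal threshold the pooled relaxed list held 56 further entries at the members, 24 at InR, 19 at foxo, 4 each at Akt and Thor, 3 at S6k and 2 at Rheb. Of these, 7 were within 500 bp of the gene's own start. Neither number was set against genes of similar length, and InR and foxo are the only members longer than 20 kb. The nearest to the threshold at foxo (3R:14059080, signal 121, rank 8657) was at rank 8126, 12584 and 11554 in replicates 1, 2 and 3. chico, Tsc1, gig and Tor had no entry of this kind.

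The words at the summits were few and mixed. Each of 11 words was looked for, in either orientation, up to 50 bp from a summit, and a match is a description of the sequence, not a binding site. At least 1 word stood at 7 of the 18 summits (38.9%), against 41.4% of all optimal summits. The forkhead word TGTTTGT was at 3 (2 InR introns and Thor, 16.7%), against 4.12% of all optimal summits, and TGTTTAC at Thor alone (5.56% against 3.44%). The 2 InR windows are less well centred than that of Thor. The nearest entries of replicates 1, 2 and 3 were 95, 71 and 84 bp from the summit at 21616391. They were 109, 4 and 130 bp from that at 21606348, and 19, 12 and 4 bp from that of Thor. TAATTA was at 2 (foxo intron and Tor, 11.1% against 8.53%) and the TATA word TATAAA at 2 foxo summits (11.1% against 19.0%). A run of 8 A, AAAAAAAA, was at 1 InR summit (5.56% against 7.75%). The DRE word TATCGATA, the M1BP word GGTCACAC, the GAGA word GAGAGAG, the E-box CACGTG, the Zelda word CAGGTAG and the Su(Hw) core TGCATACTT were at none of the 18, against 1.88%, 1.5%, 1.72%, 0.795%, 0.374% and 0.398% of all optimal summits. With 18 summits, shares of this size rest on 0 to 3 windows. The windows were 37.6% (S6k, 1037 bp inside) to 79.2% A or T with a median of 61.9%, against a median of 65.3% over all optimal summits.

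Other genes of the pathway were taken from a list of 54 names in 6 groups, of which 51 matched the annotation. In all, 31 of the 51 (60.8%) had an optimal summit within 2 kb, against the 46.0% of all protein-coding genes, and 28 (54.9%) had one within 500 bp of a start, against 29.0%. Counts are again descriptions, and gene length was not matched in them. Insulin-like peptides and their binding proteins were lowest, with a summit within 500 bp of a start at 3 of 10: Sdr, a secreted decoy receptor (signal 296), ImpL2, an insulin-binding protein (162), and Ilp7 (134). The genes of Ilp1, Ilp2, Ilp3 and Ilp4, which lie together on 3L, and that of Ilp8 had no relaxed entry within 2 kb. The same was true of 35.9% of all protein-coding genes. From the receptor to Akt 7 of 10 had a summit within 500 bp of a start. The strongest were at Pi3K21B, the adaptor subunit of PI3K (888.5, 19 bp from its start, at rank 568, 462 and 367), melt, encoding a membrane-associated modulator of the pathway (502), and 14-3-3zeta, whose product binds phosphorylated proteins (483).

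Upstream of the TSC complex 4 of 5 genes had a summit within 500 bp of a start. For this and the groups below the share of all protein-coding genes is 29.0%. They included SNF4Agamma, a subunit of the energy sensor AMPK (426), and the TOR inhibitor genes scyl (353, 12 bp) and chrb (296). Of the TORC1 and TORC2 subunits Sin1 (146) and Lst8 (126) had weak ones, at rank 22852 and 13507 in replicate 3, and raptor and rictor had none. In the amino acid branch 8 of 13 had one, led by Sesn, the sestrin gene (1776, 233 bp from a start, at rank 72, 84 and 68), Wdr24, a GATOR2 subunit gene (834), and Sec13 (231). Among the outputs 4 of 9 had one: larp, encoding a La-related RNA-binding protein (2861, 329 bp, at rank 29, 22 and 24), REPTOR, a transcription factor held back by TORC1 (2077, 171 bp, at rank 54, 57 and 67), the kinase gene Lk6 (223, with no entry within 100 bp in replicate 3) and Atg1, the autophagy kinase gene (172). The signals at larp, REPTOR and Sesn were above that of every summit of the 10 genes.

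**Figure D4:**
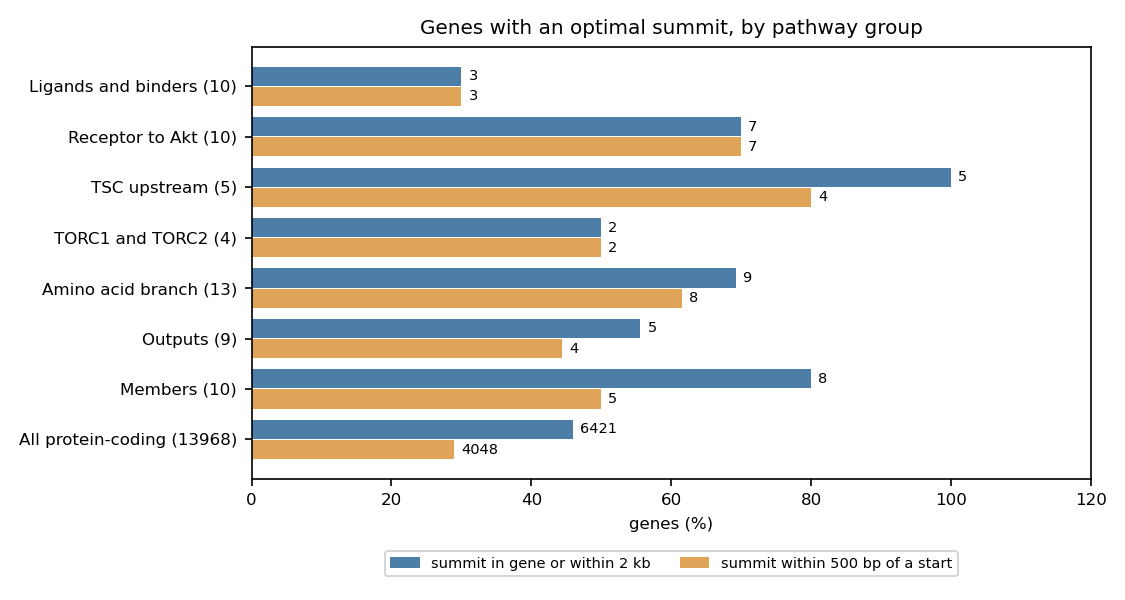
Share of genes, in percent, with an optimal summit in the gene or within 2 kb (blue) and within 500 bp of a transcript start (orange), in 6 groups of other pathway genes, the 10 members and all protein-coding genes. Group sizes are in brackets and counts stand beside the bars. Ligands and their binders are at 30% in both measures, and all 5 genes upstream of the TSC complex have a summit within 2 kb.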

How the data were processed

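The analysis started from the dm6 peak lists the authors deposited: relaxed lists of 30000 entries for each of the 3 biological replicates and for the replicates pooled, each called with a control alignment, and an optimal list of 8551 peaks, which per the file listing rests on these 4 and the irreproducible discovery rate. The sources used here do not give the aligner, the caller or the threshold. The peak signal is the authors' own value, deposited with no stated scaling between lists, and was used to rank entries within a list. The dm3 lists were not used. No read counts were used, so depth and its precision are unknown.

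Summits, 1-based, were placed against genes and transcript starts of Ensembl release 115 (BDGP6.54, dm6 coordinates) with Python 3.11.15, numpy 2.4.6 and pandas 2.3.3. A summit belonged to a gene inside it or within 2 kb, and replicate summits matched within 100 bp. Sequence came from RefSeq's copy of the same assembly. No test was made: counts stand beside the same count over all protein-coding genes, all optimal summits or genes within 1.2 times the length. Other windows, start distances, start annotations, matching distances and lists, and each replicate left out, were tried as alternatives. Figures were drawn with matplotlib 3.10.9. The counting functions were tested on simulated data. All members were named, and from each other group up to 3 genes with the highest signal within 500 bp of a start. Atg1, raptor, rictor, REPTOR-BP, Ilp1 to Ilp4, Ilp8, CG2931 and the gene nearest to a summit beyond 2 kb were named after their values were seen. Tbc1d7, Lobe and Larp1 did not match a symbol or a unique synonym. One gene of the wider list is not reported here by name. The members and lists were chosen with earlier results of these data known.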

Additional observations from a re-analysis of the deposited data

How the results depend on the processing

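Counts of members depended mainly on the window. With the gene alone 5 members and 11 summits were left (17.9% of protein-coding genes met that rule), because gig, Rheb and Tor have their summits outside the gene. With 1 kb and 5 kb the counts were 7 and 8 members with 15 and 25 summits, against 39.9% and 59.9% of protein-coding genes. With every entry of the pooled relaxed list there were 8 members and 74 summits, against 64.1% of protein-coding genes. Members with a summit near a start numbered 4 within 250 bp, 6 within 1000 bp and 5 with RefSeq starts. Summits in the top lists of all 3 replicates numbered 10 within 50 bp and 12 within 200 bp. Words were at 12 summits within 100 bp, a width chosen after seeing the data. Single words were also commoner over all optimal summits at that width, TATAAA for example at 32.9% against 19.0% within 50 bp. No share over all genes or all optimal summits is given for these start distances, matching distances and word width. Their counts should not be set against the shares of the main setting. Without 1 replicate, counting optimal summits present among the top 8551 entries of each remaining replicate, there were 6 to 7 members, 12 to 13 summits and 4 to 5 members with a summit near a start, against 38.5% to 40.7% of protein-coding genes within 2 kb and 22.5% to 24.1% near a start. S6k had no summit left without replicate 1, 2 or 3, and Tor none without replicate 1 or 3. The strongest signal at Akt was 274 and at foxo 246 with the gene alone, and at foxo 1030 and at Rheb 537 within 5 kb. No paired analysis was possible because there is 1 group and no result comes from a test. The lowest optimal signal was 122.6 and the highest just outside 122.5, so entries such as that at foxo (121, rank 8657) lie next to the threshold.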

Other observations

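Pathway genes without peaks lay within 1 span in 2 places. chico and REPTOR-BP, the gene of a bZIP partner of REPTOR, lie within 22718 bp on 2L (10242512 to 10265229). This span held 0 optimal and 0 pooled relaxed summits, and 5, 2 and 1 entries in the lists of replicates 1, 2 and 3. chico and REPTOR-BP are not adjacent, because other protein-coding genes lie between them. Ilp1 to Ilp4 lie within 5844 bp on 3L with 0 entries in any of the 5 lists. Genes of 1 such span share their surroundings and are not independent cases. How often spans of like size lack entries was not computed.

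Just outside the 2 kb limit of the members stood 7 optimal summits within 5 kb, at InR (2641 bp away, signal 193), Akt (4774 bp, 162), foxo (4504 bp, 135, and 3344 bp, 1030), Rheb (3168 bp, 537) and Thor (3062 bp, 252, and 2324 bp, 164). That at InR is 36 bp from another annotated start, that at Akt is 304 bp from a start of Mhcl, that at Rheb is 587 bp from the start of CG12746 and those at Thor are 7 and 233 bp from starts of noncoding RNA genes. The farthest summit inside the limit was that 1765 bp past gig.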
